A study of Mus musculus with 48 samples.

Results

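The metallothioneins Mt1 and Mt2, their metal-sensing transcription factor Mtf1 and the zinc transporters Slc30a1, Slc30a10, Slc39a4 and Slc39a14 were followed over the day in mouse liver. These 7 genes, of 21399 gene symbols on the arrays, were taken by name from the liver signal table. Each had 1 probe set, and all 7 passed the filter on low signals described below. The study asked whether timed sleep restriction (TSR) alters the diurnal rhythms of the liver transcriptome. Gentle handling held TSR mice awake between ZT0 (Zeitgeber time 0, lights on) and ZT6 for 5 days, and the mice were then left to sleep for 2 days and restricted for a further 5 days. Control mice stayed undisturbed in separate compartments. All were wild-type male C57Bl6/J mice (Bl6J in the labels) of 10 to 12 weeks according to the labels, although the methods give a wider range, and all had free access to food under equal light and dark phases. Livers were taken at ZT1, ZT7, ZT13 and ZT19 from 3 TSR and 3 control mice each, giving 24 Affymetrix Mouse Gene 1.0 ST arrays in 8 groups. Collection began on the evening before the last day of restriction, so by that schedule the TSR mice of different time points had not undergone the same number of handling periods. Mice were housed in groups, and cages are not given in the labels, so whether mice of 1 group shared a cage is unknown here.

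Metallothioneins are small cysteine-rich proteins that bind zinc and copper, and the liver is a main site of their production. In mammals, free zinc activates the factor MTF1, which binds metal response elements in the promoters of Mt1, Mt2 and the zinc exporter Slc30a1, while glucocorticoids and cytokines also induce metallothioneins. Transporters of the SLC30 family move zinc out of the cytosol and those of the SLC39 family move it in. SLC30A10 is known in humans and mice mainly as a manganese exporter, and SLC39A14 takes up manganese, zinc and iron in hepatocytes.

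The promoters are shown first because Mt1, Mt2 and Slc30a1 are textbook targets of MTF1 and because Mt1, Mt2 and Slc30a10 had the strongest rhythms of the 7 genes. RefSeq promoter windows (GRCm38.p6) matched 5 of the 7 genes. The 250 bases before the annotated start are printed for 4 of them, all on the plus strand, at chr8:94178839-94179088 (Mt1), chr8:94172368-94172617 (Mt2), chr1:185454598-185454847 (Slc30a10) and chr1:191906531-191906780 (Slc30a1). Capitals mark the core of the metal response element, searched as TGCACNC or TGCGCNC on both strands.
Mt1: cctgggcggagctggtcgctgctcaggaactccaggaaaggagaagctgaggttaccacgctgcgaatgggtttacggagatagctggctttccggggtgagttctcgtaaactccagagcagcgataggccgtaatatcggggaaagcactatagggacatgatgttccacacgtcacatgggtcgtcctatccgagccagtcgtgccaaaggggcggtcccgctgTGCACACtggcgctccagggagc
Mt2: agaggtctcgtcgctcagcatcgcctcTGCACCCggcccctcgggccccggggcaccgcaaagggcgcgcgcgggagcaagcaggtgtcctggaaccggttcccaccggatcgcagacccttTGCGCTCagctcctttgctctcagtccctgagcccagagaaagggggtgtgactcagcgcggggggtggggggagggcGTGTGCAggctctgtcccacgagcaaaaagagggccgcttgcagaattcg
Slc30a10: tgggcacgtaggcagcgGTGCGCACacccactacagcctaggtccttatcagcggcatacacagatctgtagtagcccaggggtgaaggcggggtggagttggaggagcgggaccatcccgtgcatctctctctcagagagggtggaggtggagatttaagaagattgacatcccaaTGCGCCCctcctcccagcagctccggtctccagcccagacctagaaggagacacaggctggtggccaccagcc
Slc30a1: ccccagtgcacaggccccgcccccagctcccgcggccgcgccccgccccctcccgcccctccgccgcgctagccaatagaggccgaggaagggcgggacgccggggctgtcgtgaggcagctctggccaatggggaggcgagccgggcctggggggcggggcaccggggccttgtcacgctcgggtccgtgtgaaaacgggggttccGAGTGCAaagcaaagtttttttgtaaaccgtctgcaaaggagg
The core occurred at 1 place in the Mt1 window, at 3 places in that of Mt2, at 3 in that of Slc30a10 (of which 2 overlap on opposite strands) and at 1 in that of Slc30a1. Mtf1 had 0 matches in its window. Of 32851 promoter stretches of this length, 21.4% held at least 1 core and 1.26% held 3 or more. With the 50 bases after the start, Mt1 had 3 matches, Mt2 had 4 and Slc30a1 had 2, while Slc30a10 stayed at 3. The counts of a gene thus depend on the annotated start and on where its window ends, so they do not rank the genes. The shares over all stretches are for the 250 bases only. The E-box CACGTG, bound by the clock factors CLOCK and BMAL1, is in 6.02% of all stretches, and none of these 5 windows held it. The glucocorticoid response half-site TGTTCT, in 16.1% of all stretches, matched 1 time in the Mtf1 window and not in the other 4. Sequence farther from the start was not searched for any of these motifs, so sites there would not be seen. Mt2 and Mt1 are direct neighbours on chromosome 8, with 0 annotated genes between them.

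The values below are signals, that is, fluorescence intensities on a linear scale as the authors normalized them. Tests used log2 signals in limma over the 12803 probe sets that had a gene symbol and a mean over the liver arrays of more than 97.4, which is the median of the whole table, with p adjusted over all of them after Benjamini and Hochberg and a threshold of 0.05. A rhythm is a fitted curve with a period of 24 h, and its amplitude is the log2 distance from its middle to its top. Mean signals over the 24 arrays ranged among the 7 genes from 237.8 (Mtf1) to 1663 (Mt1), and 71% to 95.2% of all probe sets had a lower mean. Signals of different probe sets depend on their probes, so levels are compared only within a gene. The array median signal lay between 88.96 and 108.8 in TSR liver and between 84.54 and 100.9 in control liver. In the labels the TSR arrays carry the numbers 1 to 12 and the control arrays 37 to 48, so an effect of that numbering cannot be told apart from TSR. A group of 5 arrays, namely TSR ZT1 replicate 3, control ZT7 replicate 3 and the 3 control ZT19 arrays, stood apart from the other 19 on a score built from TSR ZT1 replicate 3 and control ZT7 replicate 3, which are high on it by construction (28.2 to 32.4, against -20.8 to 16.3 in the others). The 10 hepatocyte markers were high throughout, with a median log2 signal of 13.1 to 13.4 in TSR liver and of 13 to 13.2 in control liver, and 6 of them were called between the treatments in the mean level, as were 2 of 6 tested stellate cell markers, beside 27% of all probe sets. Their part in the results was not tested. In TSR ZT19 replicate 3 the 14 measured of 17 pancreatic acinar markers had a median log2 signal of 9.22, against 5.28 to 6.55 in the other arrays. In bulk liver, fewer cells of a type and less RNA per cell cannot be told apart.

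**Figure D1:**
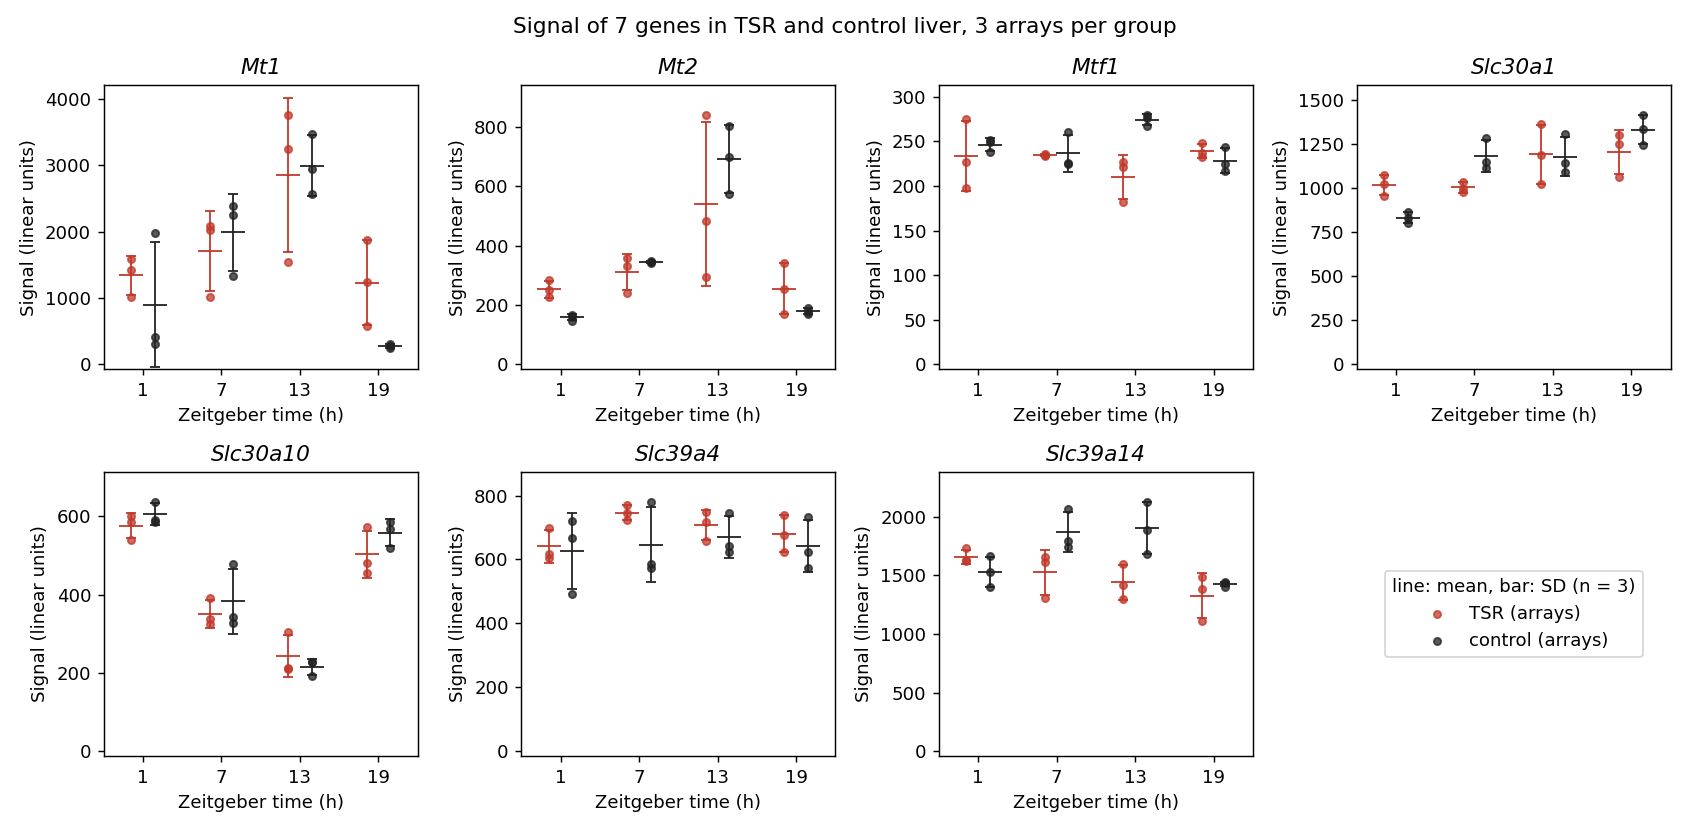
Signal (linear units) of the 7 genes against Zeitgeber time in TSR liver (red, left of each time) and control liver (black, right), with points for arrays, a line for the mean and a bar for the SD (n = 3). At ZT19 Mt1 lay at 585 to 1869 in TSR liver and at 241 to 314 in control liver, while Slc30a10 followed the same course in both treatments.

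In control liver 4 of the 7 genes were rhythmic, namely Mt1, Mt2, Slc30a10 and Slc39a14, and in TSR liver 1 was, Slc30a10. Over all probe sets 2.47% were called rhythmic in TSR liver and 12.6% in control liver. The difference in rhythm between the treatments, tested directly, passed the threshold for 0 of the 7 genes and for 0.367% of all probe sets, while 2084 of them had an unadjusted p under 0.05 in limma. Separate calls in control and TSR liver are therefore not a shown difference for any of these genes. A test of any difference between the 4 time points, without a curve, called the same Slc30a10 in TSR liver and, in control liver, Slc30a1 besides the 4 rhythmic genes (6.48% of all probe sets in TSR liver and 43.2% in control liver).

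Between single time points of TSR liver, Slc30a10 was called for ZT7 against ZT1 (12.1% of all probe sets called) and for ZT13 against ZT7 (10.2%), and Mt2 and Slc30a10 for ZT13 against ZT1 (19.3%) and for ZT19 against ZT13 (12.6%). For ZT19 against ZT1 (1.41%) and against ZT7 (3.29%) 0 of the 7 genes were called in TSR liver, with 2285 and 2158 probe sets at an unadjusted p under 0.05 in limma. In control liver 3 genes were called for ZT7 against ZT1 (5.34%), 4 for ZT13 against ZT1 (7.84%), 1 for ZT19 against ZT1 (23.1%), 2 for ZT13 against ZT7 (5.87%), 4 for ZT19 against ZT7 (13.3%) and 4 for ZT19 against ZT13 (23.5%). The control calls fell on Mt1, Mt2, Slc30a1, Slc30a10 and Slc39a14, and Mtf1 and Slc39a4 had none in either treatment.

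Mt1 varied more over the day than any other of the 7 genes in control liver. In TSR liver its signals were 1429, 1584 and 1020 at ZT1, 1021, 2092 and 2025 at ZT7, 3250, 1539 and 3759 at ZT13, and 1248, 1869 and 585 at ZT19. In control liver they were 1982, 308 and 415 at ZT1, 2249, 2389 and 1325 at ZT7, 3475, 2937 and 2563 at ZT13, and 241, 283 and 314 at ZT19. The 3 control ZT19 arrays and control ZT1 replicate 2 were the 4 lowest of all 24, and control ZT1 replicate 1 lay far above the other two of its group. The highest over the lowest group mean, ZT13 over ZT19 in both treatments, was 2.309-fold in TSR liver and 10.71-fold in control liver.

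The fitted amplitude of Mt1 was 0.58 in TSR liver (adjusted p = 0.301, limma) and 1.79 in control liver (adjusted p = 0.0103), with the top of the curve at 11.1 h and 9.57 h after lights on. Projected on the control curve, the TSR rhythm had 29.8% of its size, but the adjusted p of the difference in rhythm was 0.219. Within control liver ZT13 exceeded ZT1 by 2.23 ± 0.53 (log2, SE, adjusted p = 0.0104) and ZT19 minus ZT13 was -3.42 (adjusted p = 0.000427), whereas ZT7 and ZT13 did not differ beyond their spread (adjusted p = 0.586), nor did ZT19 and ZT1 (adjusted p = 0.103). In TSR liver none of the 6 pairs of time points passed, with adjusted p of 0.123 or more. Without the 5 set-apart arrays control liver has no ZT19, and the curve of Mt1 over ZT1, ZT7 and ZT13 had an amplitude of 1.35 (adjusted p = 0.0659, limma). That value is not like the 1.79 over all time points.

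At ZT19 Mt1 was higher in TSR liver than in control liver, 1234 ± 642 against 279.4 ± 36.5 (mean ± SD, n = 3 each), and the lowest TSR array was above the highest control array. The log2 difference was 2.00 ± 0.53 (SE), or 3.99-fold (adjusted p = 0.0194). Mt1 was the 1 member called at ZT19, where 15.1% of the tested probe sets were called (8.95% as higher) and 41% did not overlap between the groups. All 3 control arrays at ZT19 belong to the set-apart arrays, so no value without them could be had, and their part in the result was not tested. Each set-apart array of another group had the lowest Mt1 signal of its group. Control ZT7 replicate 3 was at 1325, against 2249 and 2389, and TSR ZT1 replicate 3 at 1020, against 1429 and 1584. At ZT19 TSR therefore cannot be told apart from what sets these arrays apart. The call was lost without any one of the 3 control arrays (adjusted p = 0.0646, 0.062 and 0.0523) and without TSR replicate 1 (0.053) or 2 (0.0645), with log2 differences of 1.62 to 2.09. It was kept without TSR replicate 3, the array with the pancreatic markers, where Mt1 was the lowest of its group. Without control replicate 1, 2 or 3 of ZT19 the comparison called 5.55%, 3.43% and 4.25% of all probe sets. Without TSR replicate 1, 2 or 3 it called 8.64%, 13% and 8.95%.

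At ZT1 the Mt1 groups overlapped through control replicate 1. The log2 difference of 1.06 ± 0.53 had an adjusted p of 0.272, and without that array it was 1.89 with an adjusted p of 0.0369. At ZT7 and ZT13 the groups overlapped, with differences of -0.24 (adjusted p = 0.798) and -0.16 (adjusted p = 0.85). The mean level over the 4 time points differed by 0.67 ± 0.26 (adjusted p = 0.0657), and it passed when any of 4 arrays was left out. These were replicate 1 of TSR ZT7 (adjusted p = 0.0472), replicate 2 of TSR ZT13 (0.0347), replicate 3 of TSR ZT19 (0.0363) and replicate 1 of control ZT1 (0.00489). The TSR effect on Mt1 did not pass the test of a difference between time points (adjusted p = 0.072), except without control ZT1 replicate 1 (0.0191) or TSR ZT19 replicate 3 (0.0293).

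Mt2 had the lowest adjusted p of the 7 genes for a rhythm in control liver. Its signals in TSR liver were 226, 253 and 284 at ZT1, 242, 332 and 359 at ZT7, 485, 296 and 841 at ZT13, and 254, 340 and 170 at ZT19. In control liver they were 168, 148 and 160 at ZT1, 348, 344 and 341 at ZT7, 804, 573 and 699 at ZT13, and 178, 191 and 171 at ZT19. In TSR liver the arrays of each time point overlapped with those of the next, and in control liver none of them did. The amplitude was 0.51 in TSR liver (adjusted p = 0.22) and 1.16 in control liver (adjusted p = 0.000105), with tops at 11.8 h and 11.4 h. The TSR rhythm had 43.9% of the size of the control rhythm (adjusted p of the difference 0.224).

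In TSR liver Mt2 at ZT13 exceeded that at ZT1 by 0.97 ± 0.27 (log2, SE, adjusted p = 0.0166), and ZT19 minus ZT13 was -1.01 (adjusted p = 0.017). In control liver the same differences were 2.11 (adjusted p = 2.82e-05) and -1.93 (adjusted p = 0.000197). Every pair of times in control liver passed except ZT19 against ZT1 (0.18, adjusted p = 0.643). Between the treatments, Mt2 at ZT1 was 254 ± 28.9 in TSR liver and 158.7 ± 10.1 in control liver, with every TSR array above every control array, but the difference of 0.67 ± 0.27 did not pass (adjusted p = 0.17), and 28.9% of all probe sets did not overlap at ZT1. Differences at ZT7, ZT13 and ZT19 were -0.17, -0.47 and 0.45 (adjusted p = 0.71, 0.212 and 0.251). TSR ZT13 replicate 3 held the highest Mt2 signal of all 24 arrays, and without it Mt2 was called lower in TSR liver at ZT13 (-0.85, adjusted p = 0.0232) and its rhythm differed between the treatments (adjusted p = 0.0422). The TSR effect on Mt2 did not pass the test of a difference between time points (adjusted p = 0.078), except without that array (0.0124) or TSR ZT19 replicate 3 (0.0303).

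The neighbouring genes Mt1 and Mt2 followed each other from array to array, with r = 0.819 over the 24 arrays, which share the time of day as well as the library. Their deviations from the group means correlated with r = 0.583 and rho = 0.652 (permutation p = 0.00312 and 0.00441, adjusted over 21 pairs of members 0.0655 and 0.0926). This r was 0.723 without the 2 arrays whose Mt1 deviation lay farthest from the median deviation. With no array left out, the r of the deviations was 0.832 within TSR liver and 0.338 within control liver (12 arrays each). The difference between these was not tested. The 2 genes encode closely related proteins, and whether their probes take up each other's transcripts was not tested.

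**Figure D2:**
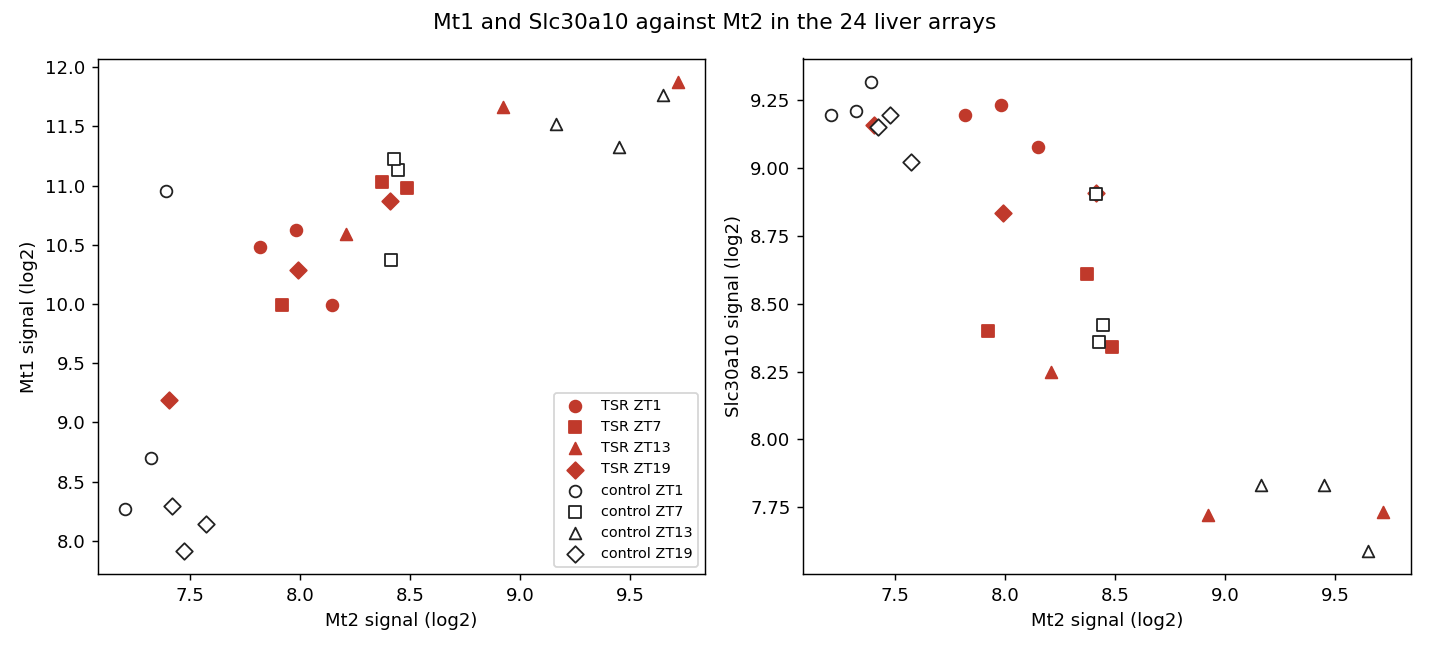
Log2 signal of Mt1 (left) and of Slc30a10 (right) against that of Mt2 in the 24 liver arrays, filled red for TSR and open black for control, with a marker shape for each time point. Mt1 went with Mt2 (r = 0.819) and Slc30a10 against it (r = -0.903), both over arrays that share the time of day.

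Mtf1, the zinc-sensing activator of metallothionein genes, had no called rhythm. Its signals in TSR liver were 275, 227 and 197 at ZT1, 233, 234 and 236 at ZT7, 227, 182 and 221 at ZT13, and 232, 248 and 237 at ZT19. In control liver they were 250, 238 and 251 at ZT1, 224, 260 and 225 at ZT7, 280, 267 and 276 at ZT13, and 244, 217 and 224 at ZT19. Amplitudes were 0.07 in TSR liver (adjusted p = 0.742) and 0.08 in control liver (adjusted p = 0.487). At ZT13 every TSR array lay below every control array, and Mtf1 was lower in TSR liver, with a log2 difference of -0.39 ± 0.10 (SE) or 0.762-fold (adjusted p = 0.0167). It was 1 of the 2 members called at ZT13, both lower, where 17.8% of the tested probe sets were called (9.22% as lower) and 34.1% did not overlap. The call was lost without TSR replicate 2 (adjusted p = 0.0687) or control replicate 1 (0.0549) or 3 (0.0506) of ZT13. Without each of these arrays the comparison called 11.7%, 7.67% and 7.78% of all probe sets. Differences at the other 3 time points were -0.09, -0.01 and 0.07, with adjusted p of 0.643 or more. The mean level of Mtf1 differed by -0.11 ± 0.05 (adjusted p = 0.129), and without TSR ZT1 replicate 1 it passed (0.037), as did the difference of the TSR effect between time points (0.0387, against 0.0826 with all arrays).

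Slc30a10 kept its rhythm in both treatments. In TSR liver its signals were 587, 601 and 540 at ZT1, 338, 391 and 324 at ZT7, 211, 304 and 213 at ZT13, and 456, 480 and 572 at ZT19. In control liver they were 638, 586 and 592 at ZT1, 343, 329 and 479 at ZT7, 193, 228 and 228 at ZT13, and 587, 520 and 569 at ZT19. In each treatment all ZT13 arrays lay below all arrays of the other times, and ZT1 and ZT19 overlapped in TSR liver and barely did in control liver. The highest mean, at ZT1, was 2.373-fold the lowest, at ZT13, in TSR liver, and 2.801-fold in control liver.

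The amplitude of Slc30a10 was 0.68 in TSR liver (adjusted p = 0.00665) and 0.80 in control liver (adjusted p = 0.00112), with tops at 23.5 h and 23.6 h, and the TSR curve had 85.9% of the size of the control curve (adjusted p of the difference 0.841). Both rhythms passed without each single array, with adjusted p of 0.00465 to 0.0221 in TSR liver and of 8.93e-05 to 0.00489 in control liver. ZT13 minus ZT1 was -1.27 in TSR liver (adjusted p = 2.84e-05) and -1.49 in control liver (adjusted p = 1.24e-06). Between the treatments no time point passed. The differences were -0.07, -0.11, 0.15 and -0.16 at ZT1, ZT7, ZT13 and ZT19, with 95% confidence intervals that together spanned -0.458 to 0.451. Slc30a10 ran opposite to the metallothioneins over the 24 arrays, with r = -0.72 against Mt1 and r = -0.903 against Mt2, which include the shared time of day. Deviations from the group means gave r = -0.335 and -0.568 and rho = -0.428 and -0.47 (permutation p = 0.121 and 0.0608 for r, 0.0727 and 0.0658 for rho). Adjusted over the 21 pairs these p were 0.424 and 0.319 for r and 0.382 for both rho. The r was -0.581 and -0.351 without the 2 arrays whose metallothionein deviation lay farthest from the median deviation.

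**Figure D3:**
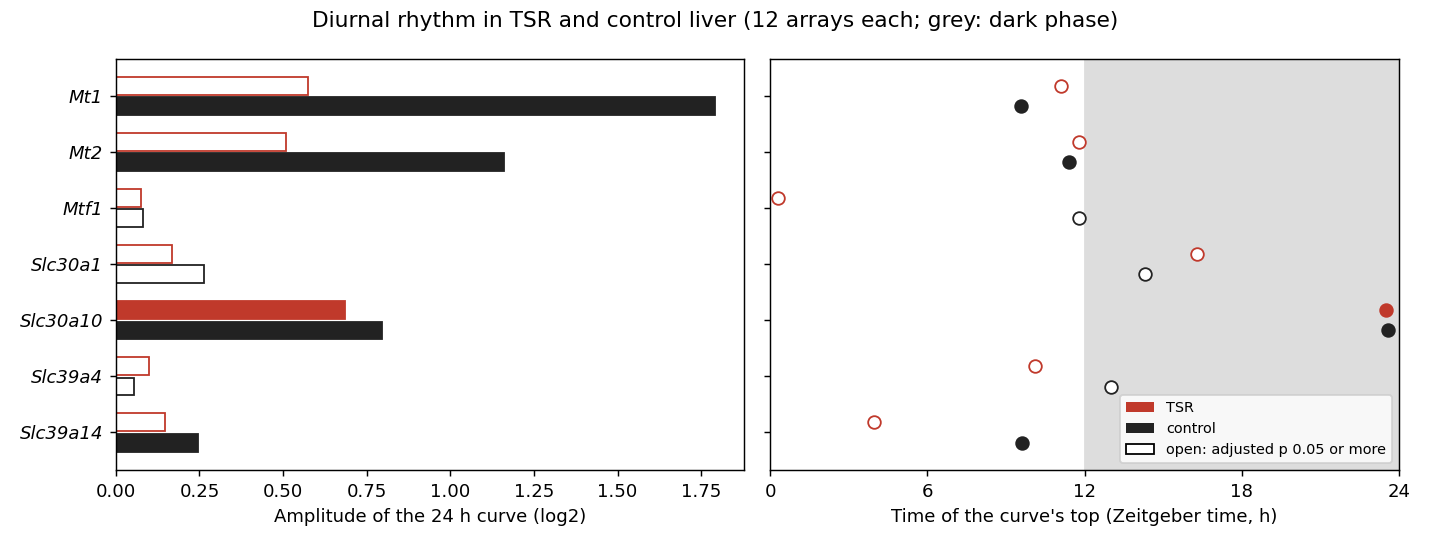
Amplitude (log2, left) and time of the top (h, right) of the fitted 24 h curve of each gene in TSR liver (red, upper) and control liver (black, lower), filled where the rhythm was called, with the dark phase in grey. Slc30a10 was called in both treatments at 23.5 h and 23.6 h, while the open TSR bars of Mt1 and Mt2 (0.58 and 0.51) are shorter than the control bars (1.79 and 1.16).

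Slc30a1, the exporter of the plasma membrane that zinc induces through MTF1, was lowest at ZT1 in control liver. Its signals in TSR liver were 958, 1074 and 1025 at ZT1, 1037, 981 and 995 at ZT7, 1189, 1022 and 1361 at ZT13, and 1063, 1251 and 1300 at ZT19. In control liver they were 865, 803 and 834 at ZT1, 1148, 1285 and 1115 at ZT7, 1141, 1304 and 1092 at ZT13, and 1247, 1416 and 1334 at ZT19. The control ZT1 arrays were the lowest 3 of all 24. In control liver ZT7, ZT13 and ZT19 exceeded ZT1 by 0.50, 0.50 and 0.68 (adjusted p = 0.00663, 0.0038 and 0.00109), while in TSR liver the highest and lowest group means differed 1.2-fold, and no pair of times passed. The rhythm had an amplitude of 0.17 in TSR liver (adjusted p = 0.224 for the curve and 0.265 for any difference between times) and of 0.26 in control liver (adjusted p = 0.115 for the curve and 0.00158 for any difference between times). Without the 5 set-apart arrays control liver has no ZT19, and the curve over ZT1, ZT7 and ZT13 passed (amplitude 0.39, adjusted p = 0.0118). That curve runs through every group mean, so it tests any difference between those times.

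The TSR effect on Slc30a1 differed between time points (adjusted p = 0.0486), the 1 of the 7 genes called in this test, which called 20.6% of all probe sets. Every TSR array lay above every control array at ZT1 (0.29 ± 0.10, log2, SE, adjusted p = 0.133) and below every control array at ZT7 (-0.23 ± 0.10, adjusted p = 0.125), where 38.4% of all probe sets did not overlap. Differences at ZT13 and ZT19 were 0.01 and -0.15. At ZT1 2.72% and at ZT7 14.8% of all probe sets were called and 0 of the 7 genes, with 2494 and 4019 probe sets at an unadjusted p under 0.05 in limma. The call lay close to the threshold. It held when replicate 1 of TSR ZT1, replicate 2 or 3 of TSR ZT13, replicate 3 of TSR ZT19, replicate 3 of control ZT7 or replicate 2 of control ZT13 was left out, and was lost without any one of the other 18 arrays, with adjusted p of up to 0.109. Without the 5 set-apart arrays, and so over ZT1, ZT7 and ZT13 only, it was 0.209.

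Slc39a14, the importer of zinc, manganese and non-transferrin iron, was lower in TSR liver at ZT13 and in its mean level. Its signals in TSR liver were 1620, 1627 and 1728 at ZT1, 1307, 1613 and 1655 at ZT7, 1600, 1418 and 1301 at ZT13, and 1383, 1482 and 1114 at ZT19. In control liver they were 1526, 1401 and 1660 at ZT1, 2061, 1791 and 1744 at ZT7, 1889, 2127 and 1684 at ZT13, and 1434, 1438 and 1402 at ZT19. All TSR arrays lay below all control arrays at ZT7 and at ZT13, where 38.4% and 34.1% of all probe sets did not overlap. The groups overlapped at ZT1 and ZT19. At ZT13 Slc39a14 was at 1440 ± 150 in TSR liver, against 1900 ± 222 in control liver (mean ± SD, n = 3 each). The log2 difference was -0.40 ± 0.12 (SE, adjusted p = 0.028), where 17.8% of the tested probe sets were called (9.22% as lower). At ZT7 the difference of -0.29 ± 0.12 did not pass (adjusted p = 0.0938). The mean level over the 4 time points was also lower in TSR liver (-0.17 ± 0.06, adjusted p = 0.0374), in a comparison that called 27% of the tested probe sets (13.2% as lower).

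The rhythm of Slc39a14 had an amplitude of 0.15 in TSR liver (adjusted p = 0.409) and of 0.25 in control liver (adjusted p = 0.0226), with the control top at 9.59 h, and the adjusted p of the difference was 0.193. These calls changed when single arrays were left out, which also leaves fewer arrays in the test. The control rhythm was lost without control ZT7 replicate 1 (0.0594) or any one of the 3 control ZT19 arrays (0.0576, 0.0577 and 0.0596). Without each of these ZT19 arrays the amplitude was 0.243, 0.244 and 0.238, with 7.89%, 7.47% and 7.72% of all probe sets called rhythmic. It was also lost with no filter on low signals (0.0651) and without the 5 set-apart arrays, which leaves no control ZT19 (0.133). The ZT13 call was lost without TSR ZT13 replicate 2 or 3 (0.0615 and 0.0941) or control ZT13 replicate 1 or 2 (0.0713 and 0.107). The call on the mean level was lost without 13 of the 24 arrays left out singly (up to 0.073), namely TSR ZT1 replicates 1 and 2, TSR ZT7 replicate 1, replicate 3 of both TSR ZT13 and TSR ZT19, control ZT1 replicates 1 and 3, control ZT7 replicate 1, control ZT13 replicates 1 and 2 and the 3 control ZT19 arrays. In TSR ZT19 replicate 3, the array with pancreatic markers, Slc39a14 was the lowest of all 24 arrays. Without it the mean difference was -0.14 (0.0707), and the TSR effect differed between time points (0.0366, against 0.0884 with all arrays).

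Slc39a4, known best as the zinc importer of the intestine, was flat. Its signals ran from 604 to 771 in TSR liver, with group means from 640.6 at ZT1 to 746.5 at ZT7, and from 493 to 781 in control liver, with group means from 626.6 at ZT1 to 670.2 at ZT13. The groups overlapped at every time point. Amplitudes were 0.10 in TSR liver (adjusted p = 0.472) and 0.06 in control liver (adjusted p = 0.858). The mean level differed by 0.11 ± 0.07 (adjusted p = 0.244, 95% confidence interval -0.0336 to 0.252).

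**Figure D4:**
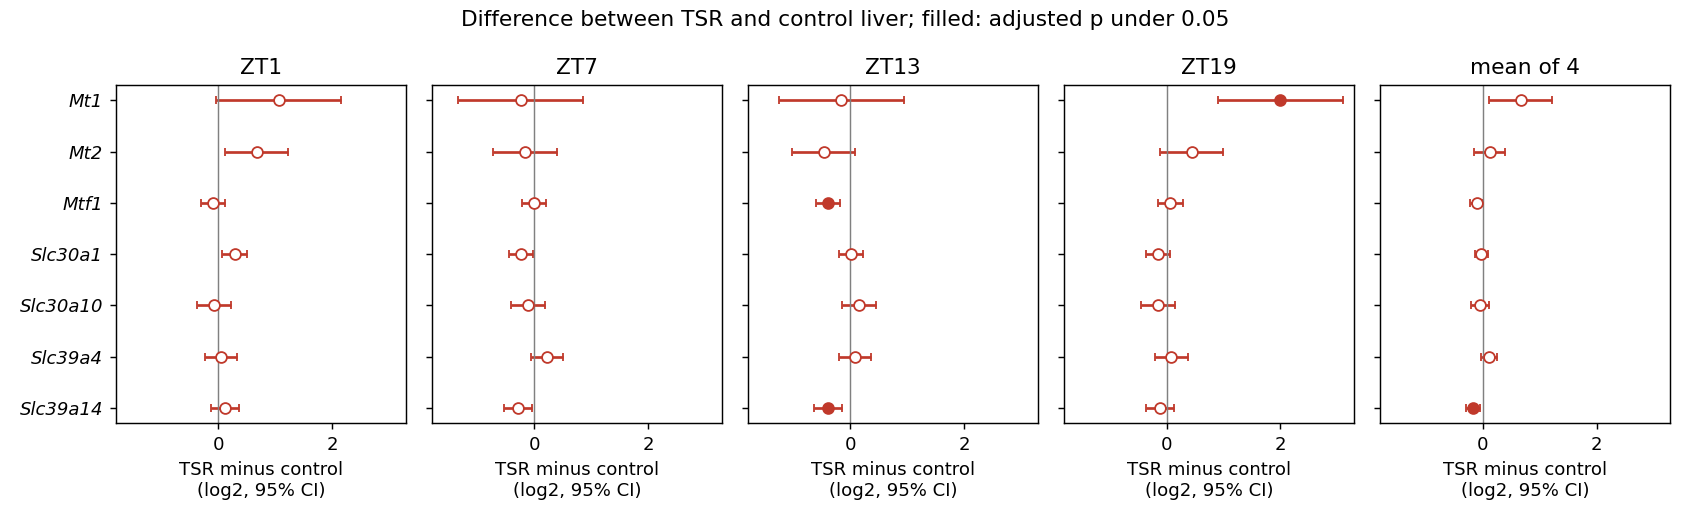
TSR minus control log2 difference of each gene with its 95% confidence interval at ZT1, ZT7, ZT13, ZT19 and for the mean of the 4 time points, filled where the adjusted p was under 0.05. Filled points are Mt1 at ZT19 (2.00), Mtf1 and Slc39a14 at ZT13 (-0.39 and -0.40) and Slc39a14 in the mean (-0.17).

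Of 20 other zinc transporters, all measured, 15 passed the filter. In TSR liver 0 of these were rhythmic, and in control liver 1 was, the importer Slc39a8 (amplitude 0.30, adjusted p = 0.0477). That is 6.67% of the 15 in control liver, and over all probe sets the shares were 2.47% in TSR liver and 12.6% in control liver. At ZT13, 3 were higher in TSR liver, namely Slc39a3 (0.61), Slc39a11 (0.35) and the vesicular exporter Slc30a3 (0.93), and 1 was lower, Slc30a4 (-0.36). At ZT7, Slc30a4 (-0.33) and Slc39a2 (-0.41) were lower, at ZT19 Slc39a13 was higher (0.40), and at ZT1 0 passed. These calls at ZT7, ZT13 and ZT19 were 13.3%, 26.7% and 6.67% of the 15, beside 14.8%, 17.8% and 15.1% of all probe sets. In the mean level 2 were higher, Slc39a3 (0.30, adjusted p = 0.00732) and Slc39a11 (0.16), and 4 were lower, Slc30a4 (-0.21, adjusted p = 0.00539), Slc30a6 (-0.25), Slc39a9 (-0.20) and Slc30a5 (-0.20). Calls in the mean level, 6 of 15 or 40%, stood beside 27% of all probe sets, and the median difference of the 15 was 0.04 (0.02 over all probe sets).

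Of 13 other metallothioneins and genes reported to depend on MTF1, 10 passed the filter. In TSR liver 0 of these were rhythmic, and in control liver 4 were (beside 2.47% and 12.6% of all probe sets), with tops in 2 parts of the day. Gclc, the catalytic subunit for glutathione synthesis, peaked at 1.28 h (amplitude 0.20), Ndrg1 at 2.50 h (0.60), Plekhm1 at 4.47 h (0.23) and the liver transcription factor Cebpa at 10.9 h (0.31). Gclc was lower in TSR liver at ZT1 (-0.38), ZT7 (-0.36), ZT13 (-0.55, adjusted p = 0.00254) and in the mean level (-0.37, adjusted p = 7.5e-05). Ndrg1 was lower at ZT1 (-1.11, adjusted p = 0.00397). At ZT7 the iron exporter Slc40a1 was lower (-0.55, adjusted p = 0.00422) and Csrp1 higher (0.35). The calls at ZT1, ZT7 and ZT13 were 20%, 30% and 10% of the 10, beside 2.72%, 14.8% and 17.8% of all probe sets. In the mean level Gclc alone was called, 10% of the 10 beside 27% of all probe sets. At ZT19, where Mt1 was higher in TSR liver, 0 of the 10 passed, beside 15.1% of all probe sets. Their median difference was 0.18 (0.02 over all probe sets).

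Glucocorticoid-responsive genes, a class to which metallothioneins belong, gave 19 tested genes besides Mt1 and Mt2. In TSR liver 1 was rhythmic, G6pc, the glucose-6-phosphatase, and in control liver 7 were (beside 2.47% and 12.6% of all probe sets). Their tops in control liver were spread over the day, at 12.2 h for the clock gene Per1, 13.8 h for Fkbp5, 17.2 h for Tsc22d3, 19.6 h for Ddit4, 22.2 h for Cdkn1a, 1.08 h for Igfbp1 and 17.8 h for Tat, which was named after its values were seen, while Mt1 and Mt2 had theirs at 9.57 h and 11.4 h. The rhythm of Per1 differed between the treatments (adjusted p = 0.035). At ZT1, 3 of the 19 were higher in TSR liver, Per1 (1.70 ± 0.32), Tsc22d3 (0.77 ± 0.14) and Fkbp5 (0.72 ± 0.17), and Igfbp1 was lower (-1.79 ± 0.32, adjusted p = 0.00508), in a comparison that called 2.72% of all probe sets. At ZT7, where 14.8% were called and Mt1 and Mt2 did not pass, 4 were higher, namely Igfbp1 (2.35 ± 0.32), Zbtb16 (0.97), Cebpb (0.68) and Sds (0.56). At ZT13 Sds was higher (0.56) and at ZT19 Cebpb (0.73), each 5.26% of the 19 beside 17.8% and 15.1% of all probe sets. In the mean level Sds, Zbtb16, Cebpb and Tsc22d3 were higher (0.40, 0.47, 0.31 and 0.20), or 21.1% of the 19 beside 27% of all probe sets. Of 22 acute phase genes tested, 0 were rhythmic in TSR liver and 2 in control liver, Il6ra (amplitude 0.70, top at 11.6 h) and Stat3 (0.27). The 2 are 9.09% of the 22, and over all probe sets the shares were 2.47% in TSR liver and 12.6% in control liver. At ZT19 Apcs (1.20) and Hpx (0.29) were higher in TSR liver, and at ZT13 Crp (-0.32) and Il6ra (-0.79) were lower, 9.09% of the 22 at each time beside 15.1% and 17.8% of all probe sets. At ZT1 and ZT7 0 of the 22 passed, beside 2.72% and 14.8% of all probe sets. In the mean level Serpina3m (0.23) and Hpx (0.19) were higher and Crp (-0.18) and Lbp (-0.34) lower, 18.2% of the 22 beside 27% of all probe sets.

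Of 25 tested genes of copper, iron and manganese handling, 1 was rhythmic in TSR liver, the copper chaperone Atox1 (amplitude 0.51, adjusted p = 0.0292), and 5 in control liver, led by the ferrireductase Steap3 (0.38, top at 23.4 h). These were 4% and 20% of the 25, beside 2.47% and 12.6% of all probe sets. In the mean level 5 were higher in TSR liver, with Atox1 (0.74 ± 0.09, adjusted p = 4.77e-05), Cox17 (0.34) and Ccs (0.32), which deliver copper, ahead of Trf and Sod1. Another 4 were lower, led by the mitochondrial iron importer Slc25a37 (-0.43 ± 0.07, adjusted p = 0.000324), and followed by Ireb2, Slc11a2 and the copper pump Atp7a (-0.18). These 9 of 25, or 36%, stood beside 27% of all probe sets.

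The probe sets most like 6 of the genes over the 24 liver arrays are given by their Pearson correlation as a description, and Mtf1 was not run. For Mt1 these were Flot1 (r = 0.906, rho = 0.905), Pdcd6, Sult1c2, Hs6st1 and C2cd2l (r = 0.857), and for Mt2 they were Nrg4 (r = 0.893, rho = 0.823), Anxa7, the clock repressor Ciart and Stk35 (r = 0.871). Slc39a14 was closest to the sterol transporter Abcg8 (r = 0.876, rho = 0.867), Dcun1d4, Atp6v1c1, Gpd2 and Gcnt2. Of these 6, the flat Slc39a4 had the lowest first r, with Aar2 (r = 0.75, rho = 0.775), and Gm14165, Car11, Bscl2 and Acp5 after it. For Slc30a10 and Slc30a1, added after their values were seen, the first were Pde9a (r = 0.951, rho = 0.9), Avpr1a, Tars, Cldn1 and Insig2, and Phf20 (r = 0.814, rho = 0.772), Acot4, Cyp2a4, St3gal5 and Akr1c19. These arrays share the time of day, the treatments and the set-apart arrays.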

How the data were processed

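Signals were intensities on a linear scale that the authors had normalized with d-Chip and deposited for 28815 probe sets. The lowest value is 1 (d-Chip version and steps: not given in the sources used here). Detection p-values and calls of the authors were not used. The 24 liver arrays were grouped by treatment and time from the labels, and 24 arrays labelled WAT entered no comparison. Probe sets with a gene symbol (24261, of which 3122 symbols were updated through RefSeq) and a mean liver signal above 97.4 were tested, 12803 in all, which stand for 11290 genes.

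Log2 signals were fitted with limma 3.58.1 in R 4.3.3. Rhythms were tested per treatment with cosine and sine terms of a 24 h period, their difference over 24 arrays, and levels and the interaction of treatment and time with 8 group means. Every p was adjusted after Benjamini and Hochberg. An exact permutation test of 3 against 3 arrays cannot go below 0.1. The p of the limma tests rest on the spread between arrays of a group, 1 per mouse. In it differences between mice cannot be told apart from those of array handling or cage, and precision is limited by how many arrays there are. Members and gene lists were chosen with earlier results of these data known. All 7 members are named, up to 6 called genes per list and comparison, and the 5 probe sets most like a member, of which 1 is not reported here.

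Deviations from the group means had a median r of 0.0492 over 84 pairs of same-numbered replicates, against -0.0314 over 168 pairs of different number. The alternatives were no filter, a filter at 200, quantile normalization, log2 of the signal plus 16, the replicate block, the 5 set-apart arrays left out, each array left out, a test over times without a curve and the methods' t-test, which was run for the comparisons at single time points. Promoter windows came from RefSeq tables of GRCm38.p6. Further software was data.table in version 1.17.8, Python 3.11.15 and, for the figures, matplotlib 3.10.9.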

Additional observations from a re-analysis of the deposited data

Results flagged for a closer look

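The TSR effect on Slc30a1 differed between the 4 time points by the test of that difference (limma, adjusted p = 0.0486). All 3 TSR arrays were above the control arrays at ZT1 (957.58 to 1073.85 against 802.57 to 864.79) and below them at ZT7 (980.96 to 1037.2 against 1115.27 to 1284.77), where 28.9% and 38.4% of all probe sets did not overlap. Neither time point passed by itself (adjusted p = 0.133 and 0.125), and the call on the difference was lost with the replicate block (0.0507) and without any one of 18 of the 24 arrays.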

How the results depend on the processing

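Of the results for single genes, 1842 kept their direction and their side of the threshold across the alternatives, 58 were no longer called, 18 became called and 0 reversed. Most of the 1842 are results that were not called in the main tests and stayed so. Only the few called results could be lost, so 58 beside 1842 is not a rate of lost calls. The 1842 also include rhythms of 1 treatment with an array of the other treatment left out, which could not change because rhythms were fitted per treatment. The rhythms of Slc30a10 in both treatments and of Mt2 in control liver were called under every alternative that was run. The rhythm in control liver, called for 4 genes, was called for 3 without a filter on low signals (Slc39a14 lost, adjusted p = 0.0651). At ZT13, where 2 genes were called, 1 was called without a filter on low signals (Mtf1) and 0 by the methods' t-test. At ZT19, where Mt1 was called, 0 were called by the methods' t-test, with Mt1 at an adjusted p of 0.0999. That test called 802 probe sets at ZT19 after Benjamini-Hochberg but 0, 5 and 8 at ZT1, ZT7 and ZT13. At ZT7, where 0 were called, 1 was called with quantile normalization (Slc39a14, adjusted p = 0.0416). In the mean level, where 1 was called, 0 were called with no filter and 2 with quantile normalization (Mtf1 and Slc39a14). The difference of the TSR effect between time points, called for Slc30a1, was called for 0 genes with no filter (0.0981), without the 5 set-apart arrays (0.209) and with the replicate block (0.0507). The replicate block moved no other call. Of same-numbered pairs of samples, 34 of 84 correlated over 0.1, and of pairs of different number 48 of 168 did. What same-numbered samples share beyond the number was not tested. With no filter more probe sets were tested, and the cause of the changed calls was not tested under any alternative.

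With each array left out in turn, the number of the 7 genes called ran from 3 to 4 for the rhythm in control liver, from 0 to 1 for the difference in rhythm, from 0 to 1 at ZT1, from 0 to 2 at ZT13, from 0 to 1 at ZT19, from 0 to 2 in the mean level and from 0 to 4 for the difference of the TSR effect between time points. The 4 were Mt1, Mt2, Slc30a1 and Slc39a14, called without TSR ZT19 replicate 3, where this test called 30.4% of all probe sets. Without that array the rhythm in TSR liver was called in 5.24% of all probe sets and the difference in rhythm in 3.51%. Without control ZT7 replicate 3, 32.8% of all probe sets were called rhythmic in control liver. A choice of another probe set could not be run, because each gene has 1, and without the set-apart arrays no control array is left at ZT19, so that ZT19 and the mean level could not be fitted. The control rhythm and the difference of the TSR effect between time points then rested on ZT1, ZT7 and ZT13. With these times a 24 h curve runs through every group mean, so those values are not like those over 4 time points. The dimmest gene, Mtf1, had a mean signal of 237.8.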

Other observations

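In the 24 arrays labelled epididymal WAT, which entered no comparison, Mt1 ran from 266 to 3930 (median 2050), Mt2 from 75.2 to 1840 (median 304) and Slc39a14 from 163 to 1550 (median 1240). Mt3, the metallothionein of the brain, ran from 39.9 to 5050 (median 56.3). In these arrays the median log2 signal of neural markers ran from 4.75 to 11.1, that of hepatocyte markers from 4.56 to 13.1 and that of adipocyte markers from 4.50 to 6.39, while adipocyte markers had 6.27 to 6.85 in TSR liver and 6.20 to 6.60 in control liver. The label of these arrays therefore goes against their markers, and none of their values is read as adipose tissue.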
